A study of Homo sapiens with 54 samples.

Results

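PC3 cells that survived cisplatin were compared with untreated PC3 cells by ATAC-seq. PC3 is a line grown from a prostate cancer that had spread to bone, with little androgen receptor and no functional p53. The day 1 group holds survivors taken 1 day after the drug was removed, and the control group holds PC3 cells that received no drug; drug dose and exposure time are not given in the sources used here. Each group has 3 biological replicates with 1 deposited peak list each, so 6 of the series' 18 lists enter the comparison. The 6 lists stand for 18 of its 54 libraries, because each biological replicate was split into 3 before tagmentation. Lists of PC3 survivors taken 10 days after removal, and of untreated and day 1 MDA-MB-231 cells, a triple-negative breast cancer line, are used only beside the PC3 values, 3 lists each.

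ATAC-seq maps open chromatin: a transposase cuts DNA where nucleosomes and other proteins leave it exposed and tags the cut ends for sequencing. Active promoters and enhancers are open, and most CpG-rich promoters stay open in nearly every cell. Cisplatin forms crosslinks within and between DNA strands, which block replication and transcription until repair enzymes remove them, and some cells that outlive the drug leave the cycle with enlarged, polyploid nuclei. The assay was done on cells in bulk, so a site open in more of the cells and a site more open in each cell cannot be told apart.

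The line labels were checked against a deletion known in MDA-MB-231. The CDKN2A locus, which encodes the p16 cell cycle inhibitor, was listed at 0 in all 9 MDA-MB-231 lists and from 1.21 to 3.23 kb of peaks in each of the 9 PC3 lists. The epithelial keratin gene KRT8 carried from 11.5 to 13.7 kb in the 6 lists. KLK3, the prostate-specific antigen gene, carried from 0.693 to 1.08 kb, with no peak over its start in any PC3 list. Of 20 housekeeping genes 3 had no peak in any of the 18 lists, so a 0 says only that no peak is listed.

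Peaks covered more of the genome in survivors than in untreated cells. The 3 day 1 lists covered 76.5, 81.3 and 80.7 Mb of the genome, and the 3 control lists 67.0, 66.4 and 62.1 Mb. All 3 day 1 values lay above all 3 control values, with means of 79.5 ± 2.60 and 65.2 ± 2.65 Mb (SD, n = 3) and a log2 difference of 0.29 (two-sided exact permutation p = 0.1, the smallest that 3 lists against 3 allow). The lists held 164802, 115050 and 134906 peaks at day 1 and 114731, 113631 and 106577 in control, again without overlap (exact permutation p = 0.1). Day 1 replicate 1 stood apart in shape, with the most peaks and the lowest median peak width, 346 bp against 541 and 455 bp in the other day 1 lists and from 429 to 455 bp in control. Replicate 1 was also the narrowest of the PC3 day 10 lists and of each MDA-MB-231 group, but not of PC3 control. Day 1 replicate 1 also held 18793 regions seen in no other of the 6 lists, against from 871 to 4668 for each of the others. Without it the log2 difference in peak number was 0.16, against 0.29 with it. The log2 difference in covered length was 0.31 without that list and 0.09 over the 50000 peaks of largest area in each list, where the groups overlapped (exact permutation p = 0.7). Read counts are not part of the lists, so depth is unknown and its part in the larger covered length was not tested.

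**Figure D1:**
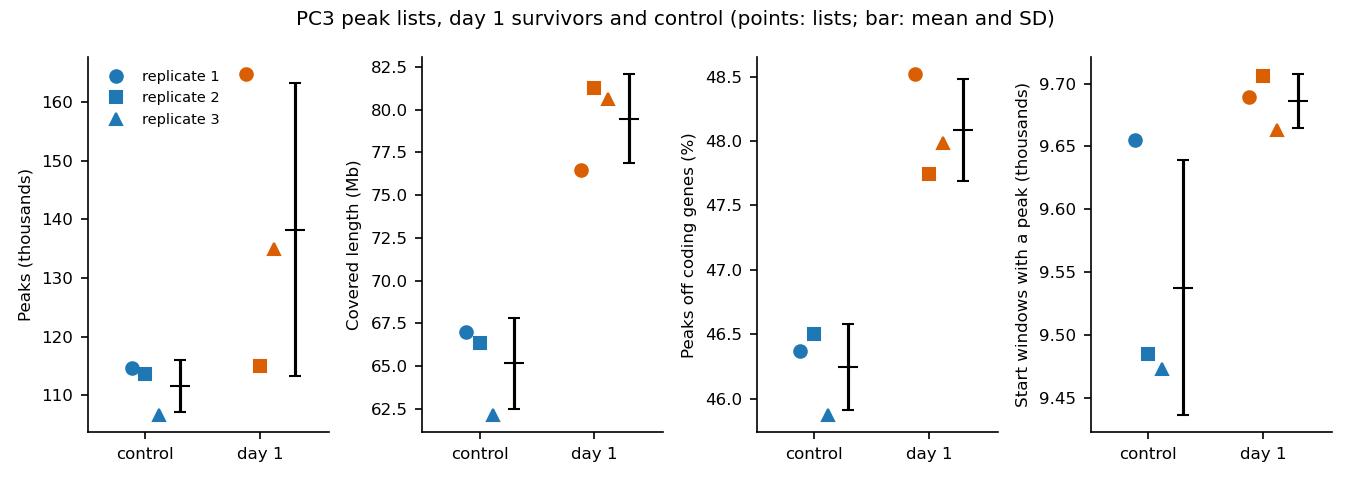
Number of peaks (in units of 1000), covered length (Mb), share of peaks that overlap no protein-coding gene (percent) and gene start windows with a peak (in units of 1000) in each of the 3 control and 3 day 1 PC3 lists, with the mean and SD beside the points; the axes do not start at 0. In every panel the 3 day 1 points lie above the 3 control points, and day 1 replicate 1 has the most peaks.

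The share of peaks outside genes was slightly higher at day 1. Peaks that overlap no protein-coding gene made up 48.5, 47.7 and 48.0% of the day 1 lists and 46.4, 46.5 and 45.9% of the control lists. That is 1.83 percentage points more at day 1, with no overlap between the groups (exact permutation p = 0.1). The difference was 1.34 points, also without overlap, over the 50000 peaks of largest area. Peaks within 1 kb of a gene start fell short of the control share in every list, at 8.22, 9.72 and 8.82% against 9.92, 9.77 and 10.3% (exact permutation p = 0.1), although the day 1 lists had slightly more start windows with a peak, 9686 ± 21.7 against 9538 ± 102. Over the 50000 peaks of largest area the start share did not separate the groups, at 17.9 ± 0.681 and 18.3 ± 0.212% (exact permutation p = 0.5).

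Peaks of the 9 PC3 lists were merged into 194852 regions, of which 83407 were found in all 6 lists compared. A region was called gained when all 3 day 1 lists and no control list had a peak in it, and lost in the opposite case. By this rule 8349 regions (4.28% of all) were gained and 794 (0.407%) were lost. Widths are those of the merged regions, which day 10 peaks can extend. Median widths were 472 bp for gained and 325 bp for lost regions, 457 bp over all regions and 723 bp for those in all 6 lists. More gained than lost regions had day 10 peaks, as given below, so these widths do not compare the day 1 and control peaks directly. More of the gained than of all regions lay outside protein-coding genes, 55.3 against 49.7%, and fewer within 1 kb of a gene start, 2.00 against 6.24%. Lost regions were the other way for genes, with 40.3% outside them, and had 2.99% near a start.

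Both classes were made of weak peaks. By peak area the gained regions sat at a median percentile of 37.8, 18.9 and 27.1 within the 3 day 1 lists, and the lost ones at 15.3, 27.1 and 13.6 within the control lists, where regions found in all 6 lists sat between 59.7 and 72.9. With each list reduced to its 50000 peaks of largest area, 1973 regions were gained and 1804 lost. Dropping day 1 replicate 2 raised the gained count to 17331, and dropping day 1 replicate 1 or control replicate 3 raised the lost count to 1792 or 1733, as fewer lists then have to meet the rule. By chromosome, from 3.08% (chromosome 9) to 5.37% (chromosome 14) of regions were gained, and from 0.188% (chromosome 17) to 0.858% (chromosome 4) were lost.

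**Figure D2:**
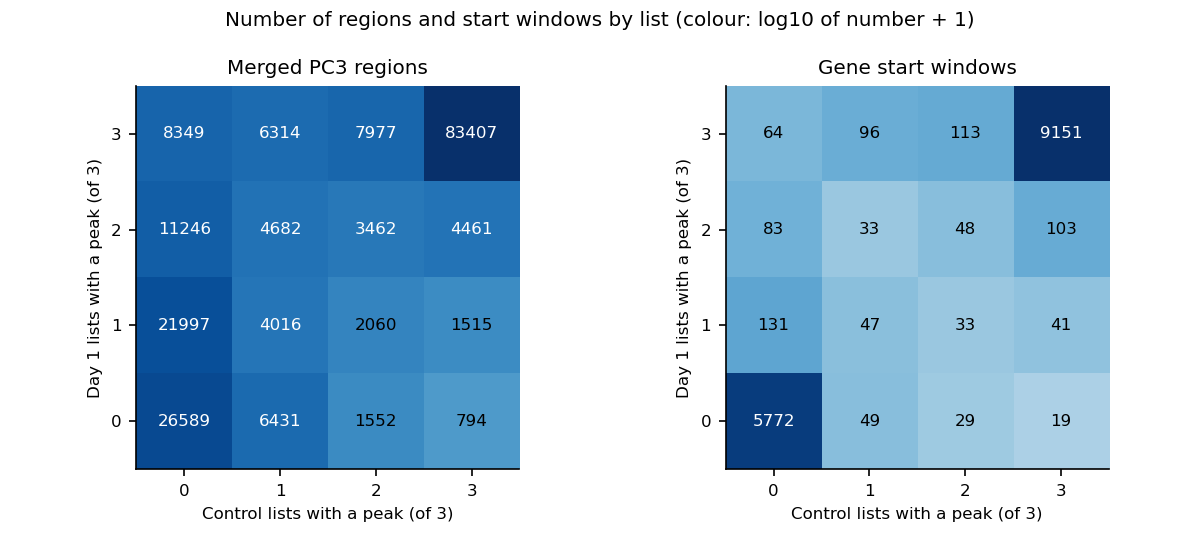
Number of merged PC3 regions (left) and gene start windows (right) by how many of the 3 control lists (horizontal axis) and 3 day 1 lists (vertical axis) have a peak there, coloured by log10 of the number plus 1. The top left cells are the 8349 gained regions and 64 gained starts, the bottom right cells are the 794 lost regions and 19 lost starts, and the largest class at starts is the 9151 windows open in all 6 lists.

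Lists of MDA-MB-231 took no part in the rule. Those of PC3 at day 10 were not counted by it, but their peaks were among those merged into regions. Of the gained PC3 regions 21.2% had a peak in all 3 untreated MDA-MB-231 lists and 41.4% in all 3 MDA-MB-231 day 1 lists. Over all PC3 regions these shares were 34.5 and 40.9%. Of the lost regions 18.5% had a peak in all 3 untreated MDA-MB-231 lists and 9.45% in all 3 of its day 1 lists. At day 10 in PC3, 1.26% of the lost regions had a peak in all 3 lists and 77.6% in none. For gained regions these shares were 69.2 and 6.43%, and for all regions 58.6 and 12.8%. All regions include 26589 (13.6%) with a peak at day 10 and in none of the 6 lists. The day 10 shares of all regions are therefore not independent of day 10. The shares are descriptions and were not tested.

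The widest gained region spans 4675 bp in the body of RTEL1, the helicase that dismantles telomere loops (chr20:63685751-63690425, GRCh38). Its peaks covered 1627, 4456 and 1361 bp at day 1 and 0 bp in control, and all 3 untreated MDA-MB-231 lists had a peak there. The next lay 27667 bp from TAB3, an adaptor of TAK1 signalling (chrX:30795475-30799774), then across AHNAK2 and PLD4 on chromosome 14, in ADCY1, an adenylyl cyclase, on chromosome 7, in TNNI1, slow skeletal troponin I, on chromosome 1, and across EME1 and LRRC59 on chromosome 17, from 3805 to 4300 bp wide. EME1 encodes a subunit of a nuclease that cuts branched DNA. These are merged widths: the region near TAB3 held 2373, 2132 and 2477 bp at day 1 and 4300 bp in day 10 replicate 3. The widest lost regions lay in or near SYT16, PRICKLE1, WDR64, MGAT4C, KRABD3 and PRICKLE2, from 906 to 1275 bp wide. The widest, in SYT16, a synaptotagmin gene (chr14:62023132-62024406), held 553, 1269 and 1157 bp in control and none at day 1. That in PRICKLE2, a planar polarity gene, was the only 1 of the 6 with a peak in any MDA-MB-231 list, untreated or day 1.

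Few gene starts changed class. Of 15812 protein-coding genes with a RefSeq start window, from 250 bases before the start to 50 after, 9151 had a peak over the window in all 6 lists and 5772 in none. Windows gained at day 1 numbered 64 (0.405%) and windows lost 19 (0.120%), TRAPPC13 and SHLD3 sharing 1 of the lost regions. The balance at starts turned with the peaks used: over the 50000 peaks of largest area 25 windows were gained and 92 lost, and over the upper 50% of each list 75 were gained and 40 lost. Without control replicate 1, or day 1 replicate 2, gained windows rose to 137 or 111. Without control replicate 2, day 1 replicate 1 or day 1 replicate 2, lost windows rose to 35, 30 or 46.

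The sequences below are the start windows of 4 gained and 4 lost genes, shown so that the 2 kinds of promoter can be read side by side. SLFN11, AIM2, NOD2, HSPB8 and PFKP were picked after their values were seen; FST, PDGFA and TRAPPC13 came from the rule for named genes. Each runs 5′ to 3′ on the gene's own strand, 300 bases from RefSeq (GRCh38.p14), in lower case, with matches on either strand to any of 8 short motifs in capitals: those of AP-1, CRE, ETS and TEAD factors, the GC box, the CCAAT box, the TATA box and the E-box, each spelled out with its count in the paragraph that follows the sequences. Matches of different motifs can adjoin or share bases, and a match is a string of letters, not a bound site.
The 4 gained windows are SLFN11 (chr17:35373572-35373871, minus strand), AIM2 (chr1:159076717-159077016, minus strand), NOD2 (chr16:50696698-50696997, plus strand) and HSPB8 (chr12:119178681-119178980, plus strand).
SLFN11: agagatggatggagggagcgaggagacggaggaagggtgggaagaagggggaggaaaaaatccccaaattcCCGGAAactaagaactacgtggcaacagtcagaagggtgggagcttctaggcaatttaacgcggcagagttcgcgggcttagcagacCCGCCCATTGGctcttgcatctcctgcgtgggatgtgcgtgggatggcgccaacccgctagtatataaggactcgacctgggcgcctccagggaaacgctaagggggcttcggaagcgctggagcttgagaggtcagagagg
AIM2: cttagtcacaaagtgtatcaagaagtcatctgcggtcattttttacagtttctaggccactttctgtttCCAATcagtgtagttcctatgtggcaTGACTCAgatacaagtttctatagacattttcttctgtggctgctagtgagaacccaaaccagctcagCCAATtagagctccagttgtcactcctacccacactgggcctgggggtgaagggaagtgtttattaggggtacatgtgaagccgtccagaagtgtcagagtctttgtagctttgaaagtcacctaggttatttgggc
NOD2: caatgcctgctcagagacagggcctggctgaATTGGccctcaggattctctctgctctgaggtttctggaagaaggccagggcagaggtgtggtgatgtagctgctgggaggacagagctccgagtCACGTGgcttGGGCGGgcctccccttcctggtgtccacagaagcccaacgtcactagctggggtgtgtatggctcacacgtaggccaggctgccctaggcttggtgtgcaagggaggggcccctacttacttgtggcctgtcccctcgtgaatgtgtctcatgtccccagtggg
HSPB8: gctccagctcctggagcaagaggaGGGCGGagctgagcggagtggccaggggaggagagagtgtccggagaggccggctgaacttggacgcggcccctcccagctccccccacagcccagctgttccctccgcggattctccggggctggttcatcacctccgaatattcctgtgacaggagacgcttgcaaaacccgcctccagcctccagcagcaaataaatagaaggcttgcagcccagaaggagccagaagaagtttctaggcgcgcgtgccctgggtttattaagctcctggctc
The 4 lost windows are FST (chr5:53480379-53480678, plus strand), PDGFA (chr7:520177-520476, minus strand), TRAPPC13 (chr5:65624777-65625076, plus strand) and PFKP (chr10:3067720-3068019, plus strand).
FST: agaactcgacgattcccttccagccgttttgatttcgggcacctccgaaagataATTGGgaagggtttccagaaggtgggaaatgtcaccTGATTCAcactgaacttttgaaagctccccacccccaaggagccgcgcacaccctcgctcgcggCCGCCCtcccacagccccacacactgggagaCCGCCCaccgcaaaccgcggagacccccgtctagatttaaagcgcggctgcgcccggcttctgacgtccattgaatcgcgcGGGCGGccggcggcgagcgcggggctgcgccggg
PDGFA: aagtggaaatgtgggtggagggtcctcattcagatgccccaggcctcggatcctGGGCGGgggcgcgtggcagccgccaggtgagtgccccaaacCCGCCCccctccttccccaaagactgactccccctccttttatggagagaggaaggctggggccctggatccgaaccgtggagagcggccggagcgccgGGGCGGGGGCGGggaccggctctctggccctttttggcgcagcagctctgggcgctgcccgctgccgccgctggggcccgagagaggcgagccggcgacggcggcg
TRAPPC13: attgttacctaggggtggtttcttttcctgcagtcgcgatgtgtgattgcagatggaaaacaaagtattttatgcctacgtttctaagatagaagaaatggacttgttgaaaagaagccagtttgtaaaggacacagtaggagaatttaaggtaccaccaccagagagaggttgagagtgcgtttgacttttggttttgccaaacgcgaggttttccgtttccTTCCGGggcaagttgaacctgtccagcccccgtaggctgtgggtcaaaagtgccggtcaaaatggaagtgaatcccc
PFKP: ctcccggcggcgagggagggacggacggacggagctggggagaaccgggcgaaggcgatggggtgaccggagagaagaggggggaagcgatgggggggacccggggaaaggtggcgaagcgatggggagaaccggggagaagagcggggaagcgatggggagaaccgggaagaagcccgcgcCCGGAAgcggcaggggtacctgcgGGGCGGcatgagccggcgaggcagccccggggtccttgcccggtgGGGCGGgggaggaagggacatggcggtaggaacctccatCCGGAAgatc

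The gained windows were poor in CpG. Their median GC content was 55.2% with 6 CpG dinucleotides per window, close to the 55.3% and 7 of the 5772 windows with no peak in any of the 6 lists. The lost windows were rich, with medians of 71.7% and 32, beside 66.0% and 27 for windows open in all 6 lists. Of the windows shown, the gained SLFN11, AIM2, NOD2 and HSPB8 have 18, 2, 6 and 15 CpG, and the lost FST, PDGFA, TRAPPC13 and PFKP have 32, 27, 10 and 31, so the classes overlap. A GC box, searched as GGGCGG on both strands like all the others, was present in 16 of 64 gained windows (25.0%), 15 of 19 lost windows (78.9%) and 58.5% of all windows. The AP-1 string TGANTCA was present in 7 gained (10.9%) and 2 lost windows (10.5%), against 5.76% of all, and the ETS string CCGGAA in 4 gained (6.25%) and 6 lost windows (31.6%), against 22.8%. A CCAAT string was present in 34.4% of gained, 21.1% of lost and 36.3% of all windows. The CRE string TGACGTCA was in 0 gained and 0 lost windows (2.59% of all). The TATA box (TATAAA), the E-box (searched as CACGTG) and the string of TEAD factors (searched as GGAATG) were found in from 4.69 to 18.8% of gained windows and from 5.26 to 10.5% of lost ones, against from 8.87 to 11.7% of all windows.

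SLFN11 encodes a helicase-like protein that stalls replication forks after DNA damage and is known for sensitizing cells to platinum drugs. Its window was covered in full, 300 of 300 bases, in all 3 day 1 lists and all 3 day 10 lists, and had no peak in any control list. The region around it (chr17:35373461-35374775) held 590, 1143 and 1013 bp of peaks at day 1. No MDA-MB-231 list, untreated or day 1, had a peak over the window. The peaks were of small area: none of them was in the upper 50% of its list.

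Other gained starts were looked at one by one. The widest regions at gained starts, from 2301 to 6164 bp, were those of P2RY11, GNG3, LOC124901110, GNAT1, MBL2 and LIME1. AIM2, a sensor of DNA in the cytosol, had 202, 204 and 200 bases of its window covered at day 1. NOD2, a sensor of bacterial wall fragments, had 280, 246 and 300 bases covered. GBP4, an interferon-induced GTPase, TANK, a regulator of TBK1, and EBI3, a subunit shared by interleukin-27 and interleukin-35, were gained too. The windows of all 5 had a peak in all 3 untreated MDA-MB-231 lists. None of the 64 gained starts belongs to a gene of the lists counted further on, and these 5 names were picked after their values were seen. HSPB8, a small heat shock protein of chaperone-assisted autophagy, had its whole window covered in each day 1 list. Peaks already stood nearby in control, with 278, 279 and 301 bp in its region against 917, 1388 and 961 bp at day 1. Of the 64 gained windows, 34 had a peak in all 3 PC3 day 10 lists (53.1%, against 56.5% of all windows) and 8 in none (12.5 against 38.5%), and 25 had one in all 3 untreated MDA-MB-231 lists (39.1 against 61.0%).

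Most lost starts had peaks in the other line. Of the 19, 15 had a peak in all 3 untreated MDA-MB-231 lists (78.9%, against 61.0% of all windows), and 18 had no peak in any PC3 day 10 list (94.7 against 38.5%). FST encodes follistatin, which binds and neutralizes activin. Its window was covered in full in all 3 control lists and not at all at day 1, and its region shrank from 1358, 1151 and 1350 bp to 0, 600 and 599 bp. PDGFA encodes a platelet-derived growth factor chain; 145, 139 and 144 bases of its window were covered in control and none at day 1, while its region kept 962, 968 and 1000 bp of the 1436, 1418 and 1413 bp in control. The window of TRAPPC13, a subunit of a vesicle tethering complex, was covered in full in control and not at day 1. SHLD3, a subunit of the shieldin complex that guards broken DNA ends, has its start in the same region. PFKP encodes platelet phosphofructokinase of glycolysis and had 81, 49 and 250 bases of its window covered in control. With only the 50000 peaks of largest area, DUSP28, PDGFA, TRAPPC13 and SHLD3 were still lost, and with the upper 50% FST and the HOXA10-HOXA9 readthrough gene were lost as well. DUSP28 lost only 12, 13 and 13 bases of its window, and its region kept 1526, 1700 and 1911 bp at day 1. The regions of TRAPPC13 and HOXA10-HOXA9 also kept peaks at day 1. For gained starts 3 of 64 (TSHR, VTN and RIPOR3) and 9 of 64 held in those settings. RIPOR3 gained only 22, 32 and 22 bases of its window, and its region held 1156, 1158 and 1108 bp in control. The region of TSHR held 549, 692 and 629 bp in control.

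For each gene, peak-covered bases were summed over its body plus flanks of 10 kb, brought to the same total per list and fitted as log2(length + 500 bp) with limma, with all 18 lists in 1 fit. Of 16816 genes tested, 1013 (6.02%) were higher and 1218 (7.24%) lower at day 1 at a Benjamini-Hochberg adjusted p under 0.05, and the 3 day 1 values lay wholly above or below the 3 control values in 6315 genes (37.6%). The 500 bp added makes the log2 change of a gene with little covered length smaller than its true ratio. The split between directions depended on the scaling. With lengths as deposited and no scaling, 2436 genes were higher and 32 lower, and 1011 of the 1013 rises but only 32 of the 1218 falls were called again. With median-of-ratios scaling the counts were 1473 and 403. With 50000 peaks per list they were 504 and 494, and 189 of the rises and 175 of the falls were called again. A fall below therefore means a smaller share of the open sequence, and falls that also passed without scaling are named as such.

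Counts of genes also rested on single lists and on the pooled spread. Rises numbered 645 without day 1 replicate 1, 539 without day 1 replicate 3, 601 without control replicate 2 and 626 without control replicate 3. Falls numbered 441, 370, 810 and 383 in the same order, and 710 without control replicate 1. With the 6 lists alone in the fit, 354 genes were higher and 229 lower.

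The largest rises were at genes with little open sequence in control. IL18BP, whose product is a secreted decoy for interleukin-18, carried 1.93, 3.49 and 4.06 kb at day 1 and 0.213, 0 and 0 kb in control (log2 change 2.65, SE 0.32, limma adjusted p = 8.6e-05). The lists do not overlap, and the rise came mainly from 2 gained regions inside the gene, chr11:72000913-72002851 and chr11:72002979-72005655. CST7, the protease inhibitor cystatin F, carried 3.26, 4.49 and 4.24 kb against 1.01, 0 and 0 kb (2.63, SE 0.31, limma adjusted p = 7.4e-05). FLT4, the VEGF-C receptor of lymphatic endothelium, carried 7.97, 10.2 and 10.2 kb against 3.05, 0.805 and 0.885 kb (2.41, SE 0.43, limma adjusted p = 0.0025). Of the 19 regions around FLT4 4 were gained, the widest being chr5:180628898-180630726 inside the gene with 1619, 1280 and 1251 bp, and untreated MDA-MB-231 had a peak in 1 of the 4. FLT4 also rose with 50000 peaks per list (3.10, limma adjusted p = 0.0081). IL18BP and CST7 did not (limma adjusted p = 0.48 and 0.066).

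The rule for named genes skipped a gene whose window overlaps that of a higher-ranked one, so CYBA (1.91), beside IL17C (1.97), was passed over. The other genes that it placed among the 10 largest rises were GPR25, an orphan receptor, SLC25A47, a mitochondrial carrier, CYP11B2, aldosterone synthase, NCAM1, a neural adhesion molecule, PILRB, an immunoglobulin-like receptor, IL17C, an epithelial cytokine, and HAMP, the iron hormone hepcidin. NCAM1 carried 3.2, 2.32 and 2.05 kb at day 1 against 0.445, 0.363 and 0 kb (2.01, SE 0.34, limma adjusted p = 0.0017), with 5 gained regions of from 266 to 486 bp spread through its body. PILRB carried 2.63, 4.94 and 4.25 kb against 0.866, 0.58 and 0.417 kb (1.97, SE 0.26, limma adjusted p = 0.00021). HAMP had 1.48, 0.892 and 1.41 kb and no peak in any control list. Of these 7, CYP11B2 and PILRB were also called with 50000 peaks per list. All 10 kept their call without scaling.

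**Figure D3:**
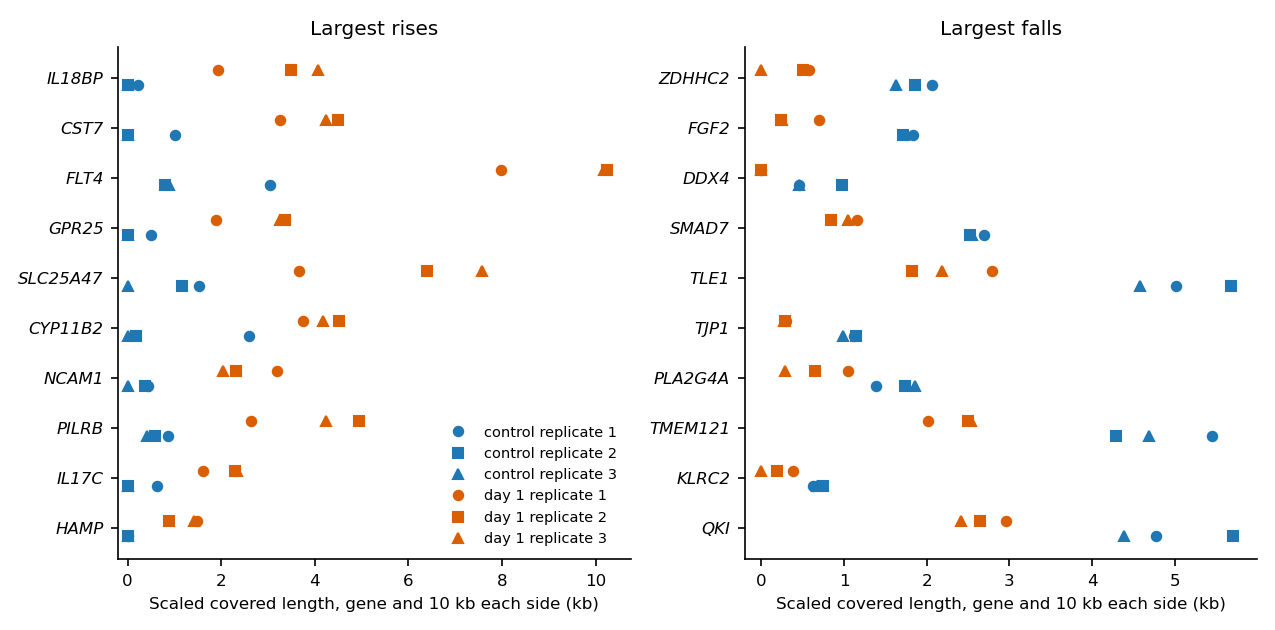
Scaled covered length (kb) of the gene and 10 kb on each side in each PC3 list, for the 10 largest rises (left) and 10 largest falls (right) by the rule for named genes, which passed over CYBA beside IL17C. Blue marks are the 3 control lists and orange marks the 3 day 1 lists, with 1 marker shape per replicate number; the groups do not overlap in any row, and most rises start near 0 in control.

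Of the 10 genes with the largest falls, ZDHHC2, TMEM121 and QKI had no lost region by the rule above, FGF2 had 2, TLE1 4 and the other genes 1 each. ZDHHC2, a palmitoyltransferase gene, carried 0.574, 0.509 and 0 kb at day 1 and 2.06, 1.86 and 1.63 kb in control (log2 change -1.52, SE 0.21, limma adjusted p = 0.0003). FGF2, a growth factor for many cell types, carried 0.692, 0.239 and 0.254 kb against 1.84, 1.71 and 1.73 kb (-1.37, SE 0.16, limma adjusted p = 7.4e-05). Of its 6 regions 2 were lost, both inside the gene: chr4:122827181-122827882, with 515, 494 and 565 bp in control, and chr4:122836966-122837393. SMAD7, the inhibitory SMAD, carried 1.16, 0.846 and 1.05 kb against 2.69, 2.52 and 2.55 kb (-1.03, SE 0.23, limma adjusted p = 0.011). The region it lost, chr18:48951499-48952272, lies 534 bp upstream of the gene and held 762, 725 and 774 bp in control. TLE1, a Groucho co-repressor, carried 2.79, 1.82 and 2.19 kb against 5.01, 5.68 and 4.58 kb (-1.02, SE 0.16, limma adjusted p = 0.0011), with 14 regions around it. TJP1, the tight junction protein ZO-1, carried 0.297, 0.292 and 0.275 kb against 1.12, 1.15 and 0.983 kb (-1.01, SE 0.15, limma adjusted p = 0.00076).

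The remaining falls named by the rule were DDX4, a germline helicase with no peak in any day 1 list and 0.455, 0.977 and 0.453 kb in control, PLA2G4A, cytosolic phospholipase A2, TMEM121, a membrane protein, KLRC2, a natural killer receptor, and QKI, an RNA-binding protein. QKI carried 2.96, 2.65 and 2.41 kb at day 1 and 4.77, 5.71 and 4.39 kb in control (-0.78, SE 0.14, limma adjusted p = 0.0025). Without scaling, ZDHHC2, FGF2, DDX4, SMAD7, TLE1, TJP1, TMEM121 and QKI were still lower, and PLA2G4A and KLRC2 were not called. With 50000 peaks per list only TMEM121 of the 10 was called (-0.96, limma adjusted p = 0.021), and DDX4, TJP1 and KLRC2 had too little covered length to be tested.

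Members of 32 gene lists (690 entries) were then counted against the shares of all genes, 6.02% higher and 7.24% lower. The lists and members were chosen with earlier results of these data known, so the counts are descriptions and do not test the lists. Of neuronal adhesion and channel genes, 6 of 23 tested members were higher and none lower, with a median log2 change of 0.16 against -0.07 over all genes. OPCML, a GPI-anchored adhesion molecule, carried 2.48, 2.05 and 2.57 kb at day 1 and 0.731, 0.231 and 0.428 kb in control (1.6, SE 0.20, limma adjusted p = 0.00014). DPP6, a subunit of potassium channels, CACNA1B, the N-type calcium channel, KCNQ3, a potassium channel, NRXN3, a neurexin, and PTPRT, a receptor phosphatase, also rose, by 1.66, 1.6, 0.74, 0.38 and 1.00. PTPRT lists overlapped between the groups. NRXN3 spans many sites, 132 regions, of which 13 were gained. Called rises in this list numbered 4 without day 1 replicate 1, 3 with the 6 lists alone and 2 of 22 tested (OPCML and KCNQ3) with 50000 peaks per list, where the median was 0. These are genes over long stretches of DNA, and OPCML, DPP6 and PTPRT had from 0 to 1 regions open in all 6 lists. In MDA-MB-231, 15 of the 23 were higher and 1 lower at day 1, against 1825 and 2609 of all 16816 genes. Their median there was 0.70, against -0.09 over all genes. The difference between the lines passed for 5 of the 23, against 5.30% of all genes.

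The TGF-beta pathway passes signals from TGF-beta, activin and bone morphogenetic protein ligands through paired receptors to SMAD proteins. Of its 21 tested members none was higher and 5 were lower, with a median of -0.19. Over the 32 lists the medians ran from -0.24 (nuclear lamina and envelope) to 0.16 (neuronal), and housekeeping genes had -0.16. Beside SMAD7 these were the receptor genes BMPR2, TGFBR1 and BMPR1A and the signal carrier SMAD2. BMPR2 carried 1.79, 1.61 and 1.10 kb at day 1 against 2.57, 2.93 and 2.91 kb (-0.74, SE 0.15, limma adjusted p = 0.0065). SMAD2 carried 1.12, 1.31 and 1.10 kb against 2.17, 2.27 and 2.17 kb (-0.69, SE 0.22, limma adjusted p = 0.047). FST, whose start was lost, carried 1.42, 1.52 and 1.5 kb against 2.61, 2.26 and 2.52 kb and did not pass (-0.58, SE 0.23, limma adjusted p = 0.11). Called falls numbered 3 without day 1 replicate 1, 3 with the 6 lists alone, 3 with 50000 peaks per list and 2 without scaling (SMAD7 and BMPR2).

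Among 25 tested genes of Polycomb, SWI/SNF and deacetylase complexes, which compact or remodel chromatin, none was higher and 6 were lower (median -0.17). BMI1, the Polycomb ring finger protein, carried 1.54, 2.78 and 2.32 kb at day 1 against 3.70, 3.87 and 4.54 kb (-0.76, SE 0.14, limma adjusted p = 0.0025). SUZ12, a core subunit of Polycomb repressive complex PRC2, carried 2.17, 1.91 and 1.96 kb against 3.08, 3.47 and 3.21 kb (-0.58, SE 0.09, limma adjusted p = 0.0014), and EZH2, its methyltransferase, 1.88, 1.20 and 1.14 kb against 2.32, 2.5 and 2.85 kb (-0.70, SE 0.18, limma adjusted p = 0.018). HDAC9, a deacetylase, fell by 0.57. With 50000 peaks per list 6 members were lower, SUZ12 by 1.61 and BMI1 by 1.46. Without scaling 2 were lower, BMI1 and SUZ12, without day 1 replicate 1 there were 3, and with the 6 lists alone 1. Of 20 nuclear lamina and envelope genes 5 were lower and 1 higher (median -0.24), LBR, the lamin B receptor, and LMNB1, lamin B1, each by 0.32, and LEMD2, an inner membrane protein, higher by 0.38. The 5 falls became 1 without day 1 replicate 1 and 0 with 50000 peaks per list, and without scaling 4 genes of the list were higher and 0 lower.

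Genes that decide survival after damage moved little and in both directions. Of 24 tested genes of the BCL2 family and apoptosis 2 were higher and 1 lower. BCL2L1, which encodes the survival protein BCL-XL, carried 20.0, 22.6 and 20.6 kb at day 1 and 13.3, 15.9 and 14.6 kb in control (0.52, SE 0.08, limma adjusted p = 0.0011), with 3 gained regions inside the gene, among them chr20:31665766-31667328. HRK, a BH3-only killer protein, carried 3.38, 3.49 and 3.46 kb against 2.96, 2.40 and 2.52 kb (0.34, SE 0.08, limma adjusted p = 0.017). Both rose without scaling and with 50000 peaks per list. Of 24 p53 targets 1 was higher and 2 lower: XPC, a damage sensor of nucleotide excision repair, rose by 0.61, and CDKN1A, the p21 inhibitor, and PPM1D, a phosphatase, fell by 0.28 and 0.29. Neither fall was called without scaling. Of 24 genes of interstrand crosslink and recombination repair FANCD2, of the Fanconi pathway, was higher (0.32) and XRCC2 and BARD1, of recombination repair, were lower (-0.65 and -0.50, not called without scaling). With 50000 peaks per list none of XPC, CDKN1A, PPM1D, FANCD2, XRCC2 and BARD1 was called, XPC being at 0.08 (limma adjusted p = 0.81) and FANCD2 at 0.32 (limma adjusted p = 0.35).

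Other lists gave single genes. Of 17 NF-kappaB factors and feedback genes, NFKBIZ and NFKBIA, the latter encoding an inhibitor of the pathway, were higher and RELB, a subunit, was lower (-0.38, not called without scaling). NFKBIA carried 5.82, 6.64 and 6.79 kb at day 1 against 4.21, 4.15 and 5.46 kb (0.45, SE 0.10, limma adjusted p = 0.009), and NFKBIZ rose by 0.58 (SE 0.13). With the gene body alone, without its flanks, both were close to 0 (-0.020 and -0.016). Of 18 stemness genes LGR5, a Wnt co-receptor, SALL4, a transcription factor, and KIT, a receptor kinase, were higher by 0.66, 0.52 and 0.70, and BMI1 and ALDH1A3, an aldehyde dehydrogenase, were lower (-0.76 and -0.35, ALDH1A3 not called without scaling). LGR5 carried 4.98, 5.56 and 5.03 kb against 3.90, 2.45 and 3.08 kb. Of 25 secretory inflammatory factors IGFBP7 was higher (0.41) and 1 was lower. Of 18 epithelial genes the keratins KRT7 and KRT18 were higher (0.35 and 0.50) and 2 were lower, TJP1 among them. Of 21 hypoxia genes 4 were lower, none of them without scaling, such as the collagen hydroxylase gene P4HA1 and the demethylase gene KDM3A (-0.54 and -0.47), and HIF1A, the oxygen-regulated factor, was higher (0.64), with overlapping lists of 16.6, 21.3 and 16.9 kb against 8.18, 10.2 and 18.1 kb. NFKBIA, NFKBIZ, LGR5, SALL4, IGFBP7 and KRT7 were still called with 50000 peaks per list, and KIT, KRT18 and HIF1A were not. Of 21 tested genes of the interferon-stimulated and nucleic acid sensing list, none was higher and 2 were lower, the DNA sensor gene CGAS and the RNA sensor gene IFIH1 (-0.46 and -0.31). Without scaling 2 of that list were higher and none lower, and with 50000 peaks per list 3 were higher and none lower. In each of the lists not described, from 0 to 3 members were called in either direction.

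Haematopoietic and endothelial genes are markers of cells that a PC3 culture should lack. Of 18 tested haematopoietic genes 3 were higher and 1 lower, and of 14 endothelial genes 1 was higher and 1 lower. FLI1, an ETS factor of blood and endothelium, carried 7.04, 5.34 and 6.65 kb at day 1 and 3.52, 2.80 and 3.52 kb in control (0.85, SE 0.09, limma adjusted p = 4e-05). IKZF1, a lymphoid factor, rose by 0.85 and ITGAM, a myeloid integrin, by 0.82, and MS4A1, the B cell gene CD20, had 0.453, 0.385 and 0.423 kb at day 1 and no peak in control. FLI1 and IKZF1 were called again with 50000 peaks per list, where 3 of 12 tested endothelial genes were higher and none lower, and ITGAM and MS4A1 were not. Among 25 growth factors and receptors, the receptor genes FLT1 and PDGFRA and HBEGF, a ligand of the EGF receptor, were higher (0.79, 0.37 and 0.27), and FGF2 and EREG, another such ligand, lower (-1.37 and -0.48, EREG not called without scaling). Of 17 tested housekeeping genes 1 was lower, the actin gene ACTB (-0.57, not called without scaling), and none higher. The summed covered length of the haematopoietic list ran from 67.7 to 69.3 kb at day 1 and from 60.9 to 68.2 kb in control, and that of the endothelial list from 60.3 to 67.2 kb and from 61.2 to 64.0 kb. The pan-leukocyte gene PTPRC had 0, 0 and 0.273 kb at day 1 and 0.355, 0.416 and 0.363 kb in control, the globin gene HBB was listed at 0 in all 6 lists, and no endothelial gene was at 0 in all 6. The part of other cells in the result was not tested.

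**Figure D4:**
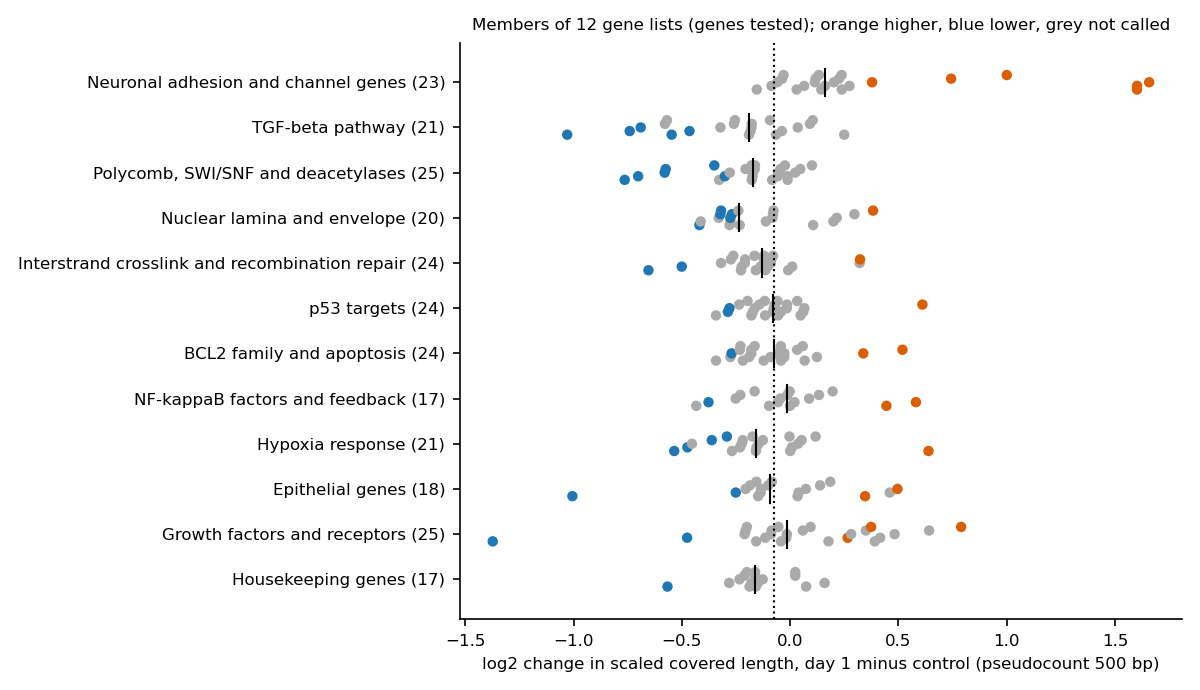
Log2 change in scaled covered length, day 1 minus control, of every tested member of 12 gene lists, 1 point per gene, with the number tested in brackets, the list median as a black bar and the median of all genes (-0.07) as a dotted line. Orange points passed as higher and blue points as lower. The 6 neuronal rises reach 1.66, and the TGF-beta, Polycomb and housekeeping lists have called members on the left side only.

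The same fit on windows of 1 Mb showed which chromosomes took part. Of 2819 windows tested, 172 (6.10%) were higher and 91 (3.23%) lower at day 1, by limma on log2(length + 1000 bp) with the same adjustment. Higher windows started from little open sequence, with a median of 9.53 kb in control and 13.7 kb at day 1 and 4 protein-coding genes. Lower windows were fuller, with medians of 30.2 and 25.1 kb and 8 genes, against 5 genes over all windows. Without scaling 1013 windows were higher and 0 lower by limma, 2 being lower at an unadjusted p under 0.05. Over 50000 peaks per list 144 were higher and 247 lower. Without day 1 replicate 1 there were 83 and 45, without day 1 replicate 3 90 and 21, without control replicate 2 94 and 39, and without control replicate 3 98 and 49.

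Chromosome 20 had the highest share of higher windows, 16 of 64, and none lower. It held 3.72, 3.81 and 3.78% of the open sequence of the day 1 lists and 3.62, 3.42 and 3.46% of the control lists, without overlap. Chromosomes 5 and 11 also held a larger share at day 1 without overlap, and chromosome 6 a smaller one. BCL2L1, CST7 and SALL4 lie on chromosome 20. Chromosome 8 had 18 of 134 windows higher and 3 lower, and chromosome 4 had 7 of 189 higher and 12 lower. A window on chromosome 20 starting at base 61000001 rose from 0.954 to 4.64 kb on average, and one on chromosome 14 starting at 78000001, which lies over part of NRXN3, from 4.94 to 9.63 kb; both also rose with 50000 peaks per list. The deepest fall, in the window of chromosome 5 starting at 65000001, which holds TRAPPC13 and SHLD3, was from 14.5 to 9.26 kb, and the next, at 81000001 on chromosome 9 with TLE1, from 17.6 to 11.9 kb. These 2 falls were larger with 50000 peaks per list, at -1.46 and -1.42 against -0.60 and -0.53, and neither was called without scaling (limma adjusted p = 0.068 and 0.13).

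**Figure D5:**
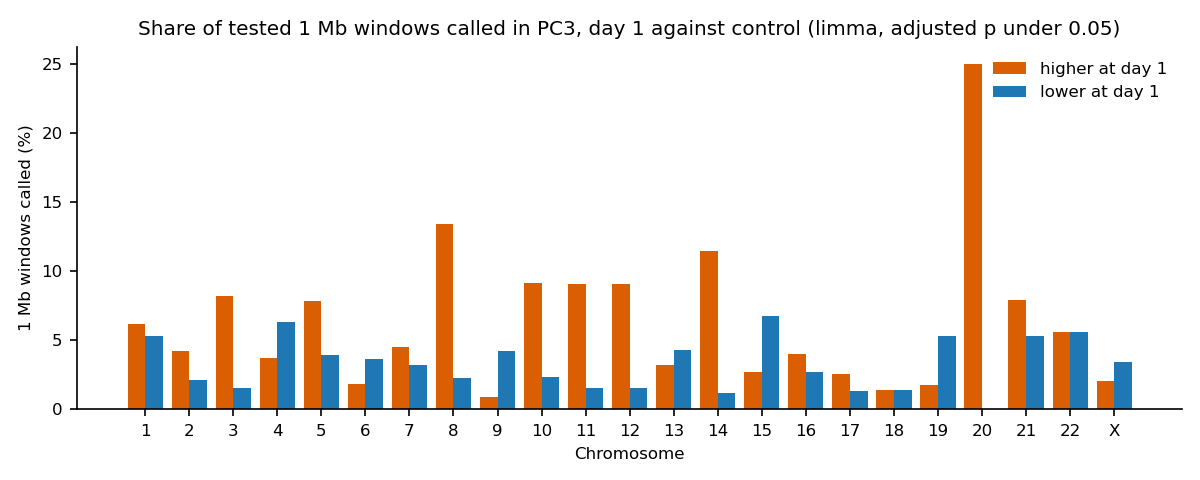
Share of tested 1 Mb windows called higher (orange) or lower (blue) at day 1 in PC3, in percent of the windows of each chromosome. Chromosome 20 has the tallest orange bar, 16 of 64 windows, and no blue one.

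The day 1 change was set against that of MDA-MB-231 by the difference between the 2 changes in the same fit. It passed for 891 genes (5.30%), 312 with the more positive change in PC3 and 579 with the more positive change in MDA-MB-231. It passed for 405 without scaling, for 453 with 50000 peaks per list, for 593 without PC3 day 1 replicate 3 and for 532 without MDA-MB-231 day 1 replicate 3. CYBA, the small subunit of NADPH oxidase, lies beside IL17C and shares its window: it carried 1.39, 1.97 and 2.04 kb at day 1 in PC3 and 0.388, 0 and 0 kb in control, while MDA-MB-231 carried 6.62 ± 0.915 kb at day 1 and 7.39 ± 0.571 kb in control (SD, n = 3; difference 2.07, SE 0.31, limma adjusted p = 0.00091). FGF2 changed by 0.12 in MDA-MB-231 and TJP1 by -0.10, and the difference from their falls in PC3 passed (limma adjusted p = 0.00091 and 0.02). HSPB8, BCL2L1 and LGR5 had more positive changes in PC3 (limma adjusted p = 0.00082, 0.015 and 0.025), against -0.07, 0.01 and 0.01 in MDA-MB-231. SMAD7, TMEM121 and NCAM1 changed by -0.87, -0.91 and 1.97 in MDA-MB-231, and no difference between the lines passed for them (limma adjusted p = 0.85, 0.98 and 0.98).

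Survivors at day 10 were set against those at day 1 directly. The test passed for 1294 genes (7.70%), 369 higher and 925 lower at day 10. It passed for 826 without scaling, for 150 with only those 6 lists in the fit, and for 505 and 836 without day 1 replicates 2 and 3. OPCML went on rising, from 2.37 ± 0.276 kb at day 1 to 18.4 ± 5.60 kb at day 10 (2.68, SE 0.20, limma adjusted p = 6.2e-07), and PTPRT from 1.37 ± 0.31 to 10.3 ± 3.92 kb (2.47, SE 0.32, limma adjusted p = 0.00015). DPP6, KCNQ3 and NCAM1 were also higher at day 10 than at day 1, by 1.77, 0.95 and 1.31. IL18BP, CST7 and FLT4 showed no further change that passed (limma adjusted p = 0.51, 0.94 and 0.12). PDGFA and BMI1, lower at day 1, were lower again at day 10, by 1.01 and 1.11 on the log2 scale, and FST, which had not passed at day 1, was lower at day 10 (-1.05, limma adjusted p = 0.012). HAUS1, of the spindle augmin complex, and its neighbour ATP5F1A, of ATP synthase, each carried 0.859, 1.03 and 0.735 kb at day 1, from the same peaks, and are listed at 0 in all 3 day 10 lists.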

How the data were processed

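ATAC-seq was done on PC3 and MDA-MB-231 cells, 6 groups of 3 biological replicates, with 1 deposited narrowPeak list each. Reads were handled with FastQC 0.12.1, Bowtie2 2.3.5.1, Picard and SAMtools 1.6 on hg38 (GRCh38), and Genrich 0.6.2 and R 4.4.1 are named too, per the submitters' processing notes. No source used here states how the 3 experimental replicates were joined. The authors' column 7 is a score, used as peak area (lowest value 200), and the authors' column 8 is a −log10 p-value (lowest 2.52). Both are the authors' own values, and column 7 was used only to order the peaks within 1 list. Without reads in the files the depth is unknown, and no counting interval is given.

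From the deposited peaks, covered length was computed per gene body with 10 kb on each side, per 1 Mb window and per merged region (overlap of at least 1 bp), for 19974 protein-coding genes of the RefSeq table. Start windows on chromosome 8 were not analysed here. Lengths were scaled to the mean total covered length, and a gene was tested when 3 or more lists held 500 bp or more. Values were fitted as log2(length + 500 bp), or 1000 bp for windows, with limma 3.58.1 (R 4.3.3; trend, 12 residual degrees of freedom), with p-values adjusted by Benjamini-Hochberg over all genes or windows. The fit was tested on simulated data. Single values per list were compared by two-sided exact permutation over 20 relabellings. P-values measure the spread between lists. Named genes were the 10 largest called rises and falls with no overlap between groups, skipping a gene whose window overlaps that of a higher-ranked one, up to 3 called members of each gene list, the widest changed starts and regions, and 5 genes each way for the line and time tests; other names are marked. The members and lists were chosen with earlier results of these data known. Alternatives were the 50000 peaks of largest area, the upper 50%, other scalings, added lengths, filters and overlaps, the gene body alone, the 6 lists alone, a replicate block and leaving out each list.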

Additional observations from a re-analysis of the deposited data

Results flagged for a closer look

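The day 1 change differed between PC3 and MDA-MB-231 for 891 genes by the limma contrast of the 2 changes. On the log2 scale the change was more positive in PC3 for IFITM10 by 2.08 (SE 0.46, limma adjusted p = 0.013), CYBA by 2.07, GPR25 by 1.97, IL17C by 1.86 and IL18BP by 1.76 (limma adjusted p = 0.00091, 0.029, 0.0078 and 0.028). IFITM10 is listed at 0 in all 3 PC3 control lists, and CYBA and IL17C share peaks. The difference, PC3 minus MDA-MB-231, was -2.51 for CNPY1, -2.51 for BTNL9, -2.39 for AGBL4, -2.34 for SCNN1B and -2.28 for DNAH9 (limma adjusted p = 8.3e-06, 1.3e-07, 0.0054, 4.3e-06 and 8.1e-05). In these 5 genes the PC3 change lay between 0.01 and 0.21 and the MDA-MB-231 change between 2.35 and 2.72. SCNN1B encodes a subunit of the epithelial sodium channel and carried 5.79, 5.58 and 5.96 kb at day 1 in PC3 against 5.52, 7.12 and 4.79 kb in control. With the 50000 peaks of largest area in each list the difference turned for IL18BP (-1.11) and SCNN1B (0.34), AGBL4 was still called (-1.11), and no other of these 10 passed. CYBA and IL17C then differed by 0.25 and 0.18, with no change in PC3 (log2 0, limma adjusted p = 1).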

How the results depend on the processing

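With 50000 peaks per list, 504 genes were higher and 494 lower, 453 differed between lines, 247 windows were lower, 1973 regions were gained and 1804 lost, 25 starts were gained and 92 lost, the log2 covered length differed by 0.094 and the share of peaks away from genes by 1.34 points. With the upper 50% of each list 4274 regions were gained, 40 starts were lost and the share differed by 2.65 points. Without scaling, 2436 genes were higher and 32 lower, 405 differed between lines and 826 between days, and 1013 windows were higher and 0 lower (2 at an unadjusted p under 0.05, limma). Median-of-ratios scaling gave 403 lower genes. With only the lists compared in the fit, 354 genes were higher, 229 lower and 150 differed between days. With a replicate block 1315 genes were higher and 1832 lower, and 344 windows were higher and 291 lower. Among the named genes followed through the settings, the block changed no call. Same-numbered lists correlated at 0.0999, -0.0444 and 0.00525, and not every list correlated best with its own number. The main fit therefore did not pair them. Replicate 1 did have the lowest median peak width in most groups. In PC3 it had 346 bp at day 1 and 320 bp at day 10, but in control 435 bp against 455 and 429 bp. In MDA-MB-231 it had 365, 350 and 333 bp in control, day 1 and day 10. The other MDA-MB-231 lists had from 401 to 592 bp. Whether the number marks a shared batch was not tested. Leaving out each list gave from 539 to 967 higher and from 370 to 1146 lower genes, from 532 to 892 for lines, from 505 to 1284 for days, from 83 to 183 higher and from 21 to 77 lower windows, from 9043 to 17331 gained and from 1017 to 1792 lost regions, from 74 to 137 gained and from 22 to 46 lost starts, from 0.16 to 0.42 for peak number, from 0.25 to 0.31 for covered length and from 1.62 to 2.00 points for the share. The fewest differences between lines came without MDA-MB-231 day 1 replicate 3 (532) and PC3 day 1 replicate 3 (593), and between days without PC3 day 1 replicate 2 (505) and replicate 3 (836). Among the genes followed, signs turned for NFKBIA and NFKBIZ with the gene body alone (-0.020 and -0.016), LMNB1 with 50000 peaks (0.042), and, for the difference between lines with 50000 peaks, IL18BP (-1.11) and SCNN1B (0.34). The fall of IFIH1, which was not followed, also turned with 50000 peaks (0.051). Of 68 genes named for day 1 and followed in this way, 51 kept their call without scaling, 26 of 63 with 50000 peaks and 30 with the 6 lists alone. CGAS, IFIH1, ALDH1A3, ACTB, EREG and HBEGF were named for day 1 but not followed. Of these, CGAS, IFIH1, ALDH1A3, ACTB and EREG were not called without scaling. Unless stated, the cause was not tested.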
